A study of Homo sapiens with 6 samples.

Results

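The genes of MHC class I antigen presentation were examined in H660 cells, an established line of neuroendocrine prostate cancer (NEPC), with and without silencing of MUC1. The set was defined by function and comprised 9 of the 28008 gene symbols in the count table: HLA-B, HLA-C, B2M, TAP1, TAP2, TAPBP, PSMB8, PSMB9 and NLRC5. All 9 passed the low-count filter and were tested among 17026 genes. Per the series record, every culture carried a short hairpin RNA against MUC1 in a tetracycline-inducible vector (tet-MUC1shRNA) and had been selected with puromycin. The DOX-negative cells received 0.1% DMSO as vehicle and the DOX-positive cells received doxycycline (DOX) at 500 ng/ml, for 7 days per the study, with 3 RNA-seq libraries in each group. The comparison asks which transcripts change when the hairpin is switched on, and 1 hairpin in 1 line was profiled. DOX treatment of cells without the MUC1 hairpin was not analysed here, so effects of the hairpin and of DOX itself cannot be told apart.

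Class I molecules display peptides from inside the cell to CD8+ T cells. Proteasomes cut proteins into peptides, the TAP transporter carries these into the endoplasmic reticulum, and the loading complex places them on a heavy chain paired with β2-microglobulin. Interferon-γ raises many of these genes together, through IRF1 and through the transactivator NLRC5, and neuroendocrine tumors are known for low class I display.

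Promoter sequences were available for 8 of the 9 genes as 10 windows, each from 250 bases before to 50 bases after an annotated start (RefSeq, GRCh38.p14). In HLA-B the upstream stretch held κB, CRE-like and CCAAT matches in a compact block, and in HLA-C it held CRE-like and CCAAT matches. Both stretches are shown, from base -185 to base -51 relative to the start. Capitals mark matches on either strand to GGGNNNNCCC (a κB outline), TGACG (the core of a cyclic AMP response element) or CCAAT. The HLA-B stretch is chr6:31357230-31357364 and the HLA-C stretch is chr6:31272143-31272277, both on the minus strand.
HLA-B: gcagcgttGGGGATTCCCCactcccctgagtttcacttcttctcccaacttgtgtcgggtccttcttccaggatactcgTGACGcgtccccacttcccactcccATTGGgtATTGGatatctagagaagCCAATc
HLA-C: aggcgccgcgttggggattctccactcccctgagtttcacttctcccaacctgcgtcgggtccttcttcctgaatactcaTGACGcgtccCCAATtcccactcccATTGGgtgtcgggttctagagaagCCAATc

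Both genes carried TGACG at nearly the same distance from the start, at base -106 in HLA-B and -105 in HLA-C. The κB outline matched HLA-B from base -177 and, shifted by 1 base, from -176, and it had no match in the HLA-C window. Over the aligned 11 bases, ggggattcccc in HLA-B and ggggattctcc in HLA-C, the sequences differed by the single substitution C9T, counted from 1 at the 5′ end with the HLA-B base first. Of 35116 promoter windows in the RefSeq table, 17.8% held the κB outline, 24.6% held TGACG and 34.6% held CCAAT.

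The letters GAAANNGAAA, the core of an interferon-stimulated response element (ISRE), were present on either strand in 3.57% of all windows and in 5 of the 10 windows of the class I genes. The 4 shown here belong to the light chain, both transporter subunits and tapasin, each 50 bases long with the matches in capitals. They lie at chr15:44711357-44711406 (plus strand, B2M), chr6:32853805-32853854 (minus strand, TAP1), chr6:32838765-32838814 (minus strand, TAP2) and chr6:33314079-33314128 (minus strand, TAPBP).
B2M: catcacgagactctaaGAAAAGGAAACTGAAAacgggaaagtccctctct
TAP1: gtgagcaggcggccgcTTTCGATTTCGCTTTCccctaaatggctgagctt
TAP2: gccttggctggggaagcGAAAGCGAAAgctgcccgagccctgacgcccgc
TAPBP: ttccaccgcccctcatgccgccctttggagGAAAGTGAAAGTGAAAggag

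In B2M, TAP1 and TAPBP a pair of overlapping matches formed a triple repeat, beginning at base -144, -134 and -20, respectively. TAP2 held a single match at base -58. The fifth window was the second annotated start of PSMB8, where the match began at base -4. Matches to TTCNNNGAA, the outline of a STAT-binding GAS element, were found in 7.66% of all windows and in 2 of the 10. These are matches of letters only.

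Total counts were 47620696 to 74061121 per library, and TMM scaling factors were 0.967 to 1.03. MUC1, the target of the hairpin, was at 88.2, 90.2 and 79.6 normalized CPM (counts adjusted for library size) without DOX and at 36.7, 37.2 and 29.9 CPM with DOX, a log2 fold change of -1.32 (SE 0.096) that passed edgeR's quasi-likelihood test (adjusted p = 0.00017). The neuroendocrine identity of the cells was plain, with all 10 marker genes tested and CHGA at 195 to 239 CPM without DOX, while the luminal secretory genes KLK3 and KLK2 were at or near 0 in every library. Of the luminal list, the epithelial keratins KRT8 and KRT18 were nevertheless abundant, averaging 1024 and 646 CPM without DOX, and TMPRSS2 was low at 2.87 CPM. With DOX 2 of the 10 neuroendocrine markers, NCAM1 and INSM1, were lower, against 1.96% of all genes tested. The list did not move in 1 direction: 4 log2 fold changes were above 0 and 6 below, with a median of -0.10. CHGB stood at 0.29 (adjusted p = 0.17 by edgeR), with all its DOX-positive libraries above the DOX-negative ones. Leukocytes express class I genes strongly. Of 12 leukocyte markers 5, CD3E among them, had 0 counts in all 6 libraries, and PTPRC was counted in only 1 library. The list was not uniform, and 2 of the 12 passed the low-count filter. LCP1 averaged 75.4 CPM without DOX and 90.2 CPM with DOX, and CD14 averaged 1.47 and 1.63 CPM.

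Class I transcripts were present at very different levels along the pathway. To compare levels between genes, normalized CPM was divided by the length of the annotated principal transcript in kb (CPM per kb). Without DOX, HLA-C stood highest at 554 ± 36.7 CPM per kb (SD, n = 3), above 99.6% of the tested genes with such a length. HLA-B at 208 ± 13.0, TAPBP at 192 ± 21.1 and B2M at 171 ± 4.77 CPM per kb followed. Within this order HLA-B and TAPBP overlapped across libraries, as did TAPBP and B2M. The catalytic immunoproteasome subunits were lower, PSMB8 at 55.9 ± 1.71 and PSMB9 at 34.2 ± 1.52 CPM per kb. The transporter subunits were lower again, TAP2 at 24.0 ± 0.602 and TAP1 at 13.7 ± 0.354 CPM per kb. NLRC5 was the scarcest of the 9 at 1.39 ± 0.163 CPM per kb, above 20.2% of genes. Thus the heavy chains, β2-microglobulin and tapasin were among the most abundant transcripts of these NEPC cells, and the regulator NLRC5 was in the lower part of the range. How reads that fit more than 1 place in the MHC region were counted is not given in the sources used here, so the levels of the 7 MHC genes relative to B2M, NLRC5 and other genes are uncertain to that extent. With DOX the order of the 9 genes was the same, from 600 ± 57.8 CPM per kb for HLA-C to 1.73 ± 0.173 for NLRC5.

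With DOX, the 9 genes were slightly higher on average, and none passed the test. Across the transcriptome 829 of 17026 genes were called at an adjusted p under 0.05 by edgeR, which is 4.87%, with 2.91% higher and 1.96% lower. Of the 9 class I genes 0 were called by edgeR, DESeq2 or limma-voom, and 4 (HLA-B, TAP1, PSMB9 and NLRC5) had an unadjusted p under 0.05 in edgeR, as did 21.1% of all genes tested. All 9 log2 fold changes were above 0, between 0.060 and 0.32 with a median of 0.14, against a median of 0.00034 and a share of 50.1% above 0 for all genes tested. In 4 of the 9 genes (HLA-B, TAP1, TAP2 and NLRC5) the lowest DOX-positive library lay above the highest DOX-negative one, which was the case for 14.8% of all genes tested. The members share the same 6 libraries and are not independent of each other.

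**Figure D1:**
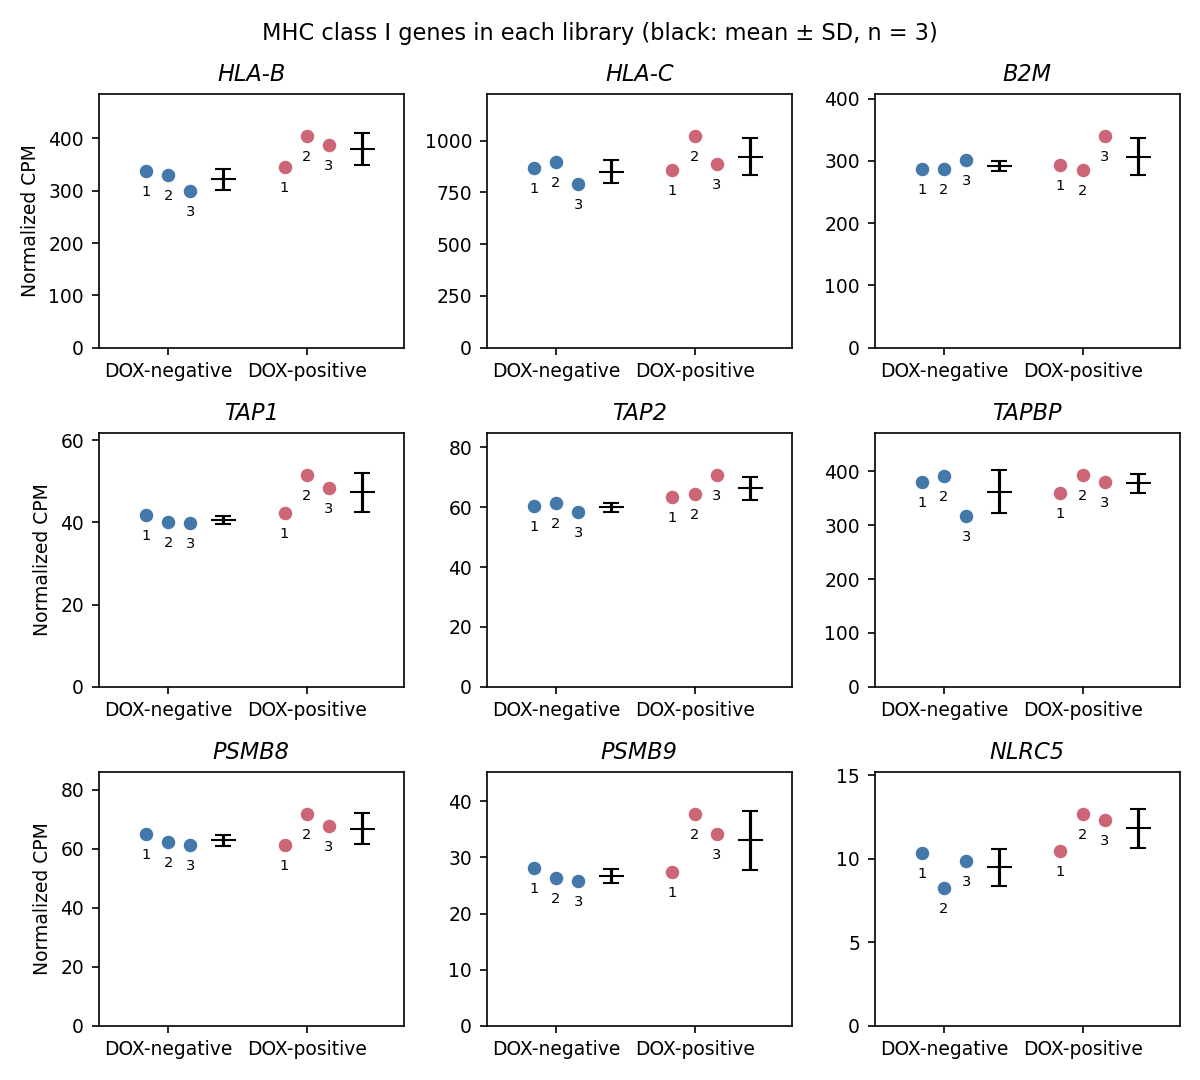
Normalized CPM (y axis, from 0, a separate scale for each gene) of the 9 class I genes in the 3 DOX-negative (blue) and 3 DOX-positive (red) libraries; numbers beside the points are replicate numbers and the black bars are mean ± SD (n = 3). DOX-positive replicate 1 lies near the DOX-negative libraries in most panels, and replicates 2 and 3 lie higher in HLA-B, TAP1, PSMB9 and NLRC5.

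HLA-B and HLA-C encode heavy chains, which hold the peptide. HLA-B was at 337, 330 and 299 CPM without DOX and at 346, 405 and 388 CPM with DOX. All DOX-positive libraries were above the DOX-negative ones, although DOX-positive replicate 1 exceeded the highest of them by little. The HLA-B fold change was 1.18 (95% interval 1.04 to 1.33, log2 0.24, SE 0.082), with an adjusted p of 0.12. HLA-C was at 865, 898 and 788 CPM without DOX and at 857, 1023 and 885 CPM with DOX, so the groups overlapped. Its log2 fold change was 0.12 (SE 0.087, adjusted p = 0.49). Heavy-chain genes resemble each other closely, and how reads that fit several of them were counted is not given in the sources used here, so the split between HLA-B and HLA-C is uncertain. B2M encodes β2-microglobulin, the invariant light chain. It was at 287, 287 and 301 CPM without DOX and at 294, 286 and 340 CPM with DOX. Only DOX-positive replicate 3 stood above the rest, and the log2 fold change of 0.072 (SE 0.081, adjusted p = 0.67) had an interval of -0.10 to 0.25.

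TAP1 and TAP2 form the peptide transporter, and TAPBP encodes tapasin, which bridges the transporter and the heavy chain. TAP1 was at 41.8, 40.1 and 39.8 CPM without DOX and at 42.2, 51.6 and 48.3 CPM with DOX. Replicates 2 and 3 of the DOX-positive group were clearly higher, whereas replicate 1 lay just above the DOX-negative libraries. The TAP1 fold change was 1.17 (95% interval 1.02 to 1.33, adjusted p = 0.17). TAP2 was at 60.3, 61.2 and 58.3 CPM without DOX and at 63.5, 64.5 and 70.8 CPM with DOX, again without overlap, and its fold change was 1.11 (95% interval 0.988 to 1.24, adjusted p = 0.29). TAPBP was at 379, 391 and 317 CPM without DOX and at 360, 393 and 380 CPM with DOX, with full overlap. Its log2 fold change was 0.060 (SE 0.088, adjusted p = 0.75). The antisense gene PSMB8-AS1 overlaps TAP1 and PSMB8, and RGL2 overlaps TAPBP. PSMB8-AS1 averaged 10.2 CPM without DOX and 11.8 CPM with DOX, and RGL2 38.2 and 36.9 CPM. The strand setting of the counting is not given in the sources used here, so the share of reads that these genes could exchange was not tested.

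PSMB8 and PSMB9 encode the β5i and β1i subunits, which replace PSMB5 (β5) and PSMB6 (β1) in the immunoproteasome and favor peptides that fit class I molecules. PSMB8 was at 64.9, 62.4 and 61.2 CPM without DOX and at 61.0, 71.8 and 67.5 CPM with DOX. Its groups overlapped, since DOX-positive replicate 1 was the lowest of the 6 libraries, and its log2 fold change was 0.087 (SE 0.079, adjusted p = 0.58). PSMB9 was at 28.0, 26.3 and 25.8 CPM without DOX and at 27.4, 37.8 and 34.1 CPM with DOX. Here too replicate 1 lay inside the DOX-negative range while the other two DOX-positive libraries were well above it. PSMB9 had a fold change of 1.24 (95% interval 1.05 to 1.46, log2 0.31, SE 0.11), with an adjusted p of 0.14. PSMB10, the remaining immunoproteasome subunit (β2i), stood at 0.17 on the log2 scale (SE 0.12, adjusted p = 0.47).

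NLRC5 encodes the class I transactivator, which is recruited to class I promoters. It was at 10.4, 8.23 and 9.85 CPM without DOX and at 10.5, 12.7 and 12.3 CPM with DOX. The groups did not overlap by a narrow margin. NLRC5 had the largest point estimate of the 9, a fold change of 1.25 (95% interval 1.05 to 1.48, log2 0.32, SE 0.12, adjusted p = 0.14).

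**Figure D2:**
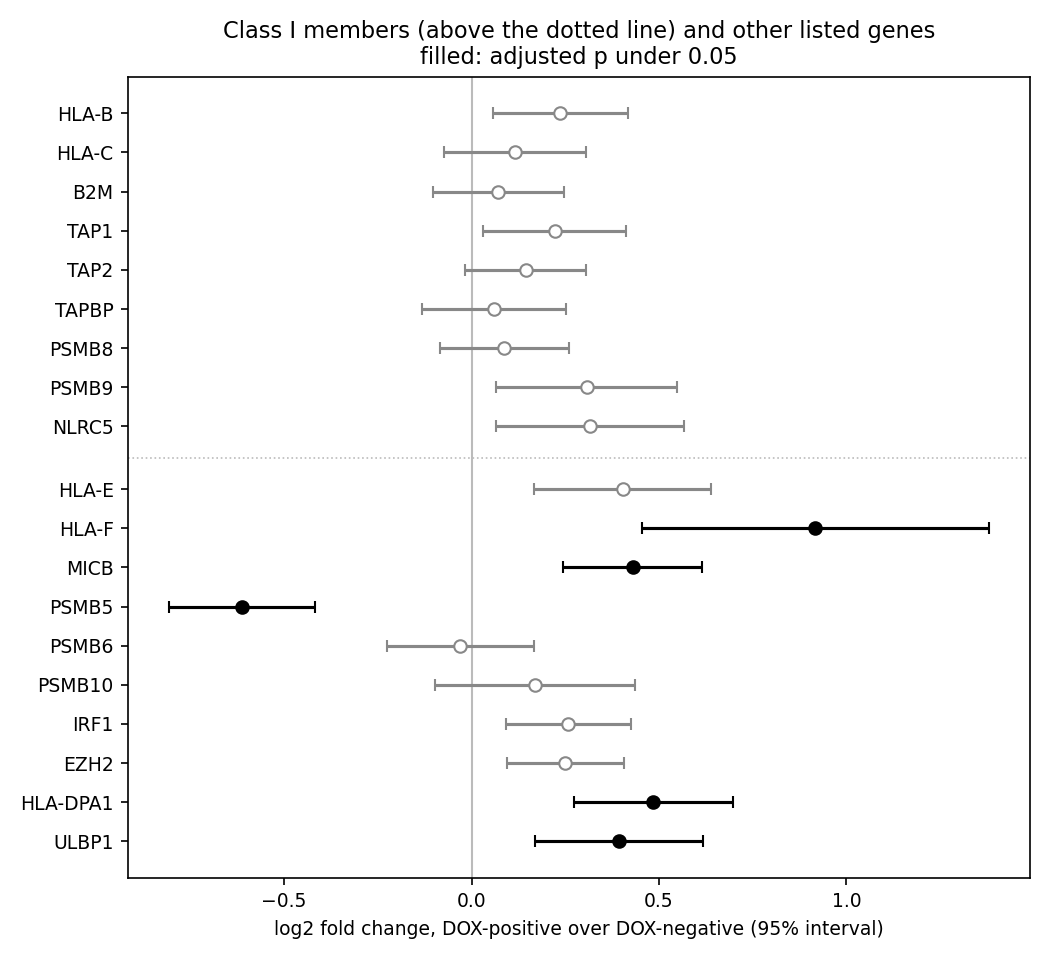
Log2 fold change of DOX-positive over DOX-negative libraries (x axis) with its 95% interval from edgeR, for the 9 class I genes above the dotted line and 10 other listed genes below it; filled points have an adjusted p under 0.05. The class I genes lie between 0.060 and 0.32 with open points, PSMB5 lies at -0.61 and HLA-F at 0.92. The 10 other genes are a selection and do not stand for their lists. CANX, CALR, PSME4, SUZ12, STAT2, JAK1, HLA-DPB1 and CD47, named in the text, are not drawn. Of the 60 class I companion genes tested, 36 had a log2 fold change above 0 and 24 below.

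The DOX-positive libraries were not alike. Expressed as the median over the 9 genes of the log2 difference from the DOX-negative mean, DOX-positive replicate 1 stood at 0.035, close to the DOX-negative libraries at -0.040 to 0.048, while replicates 2 and 3 stood at 0.27 and 0.24. The median over all genes tested was between -0.0035 and 0.0026 in each library. Replicate 1 was the lowest DOX-positive library for 8 of the 9 genes, the exception being B2M. MUC1 in that library was 36.7 CPM, between the values of the other two. Without DOX-positive replicate 1, 1 of the 9 genes was called, PSMB9 with a log2 fold change of 0.43 (adjusted p = 0.029). Without DOX-negative replicate 3, TAPBP was at -0.033, and without DOX-positive replicate 3, B2M was at -0.0096, so that the direction of these 2 genes rested on single libraries.

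TAP1, PSMB8 and PSMB9 varied together from library to library, and TAP2 followed them less closely. TAP2, PSMB8, TAP1 and PSMB9 lie within 38021 bases on chromosome 6 (GRCh38.p14 32821831 to 32859851), and the starts of TAP1 and PSMB9, which are transcribed in opposite directions, are separated by 487 bases. Over the 6 libraries log2 CPM of TAP1 and PSMB9 had a Pearson r of 0.996, PSMB8 and PSMB9 had 0.96, and HLA-B, which lies outside this cluster (31353875 to 31357179), and TAP1 had 0.95. TAP2, in the same cluster, had an r of 0.75 with TAP1, 0.72 with PSMB9 and 0.57 with PSMB8. B2M on chromosome 15 had an r of 0.72 with TAP2, 0.30 with TAP1 and -0.23 with HLA-C. NLRC5 on chromosome 16 had an r of 0.89 with TAP1. These values are descriptions over 6 libraries that share the group difference, and high values were common: of 14481 genes compared with the mean standardized profile of the 9, 877 had an r above 0.9. The nearest were CHST10 (0.996), ABHD4 (0.995), KCNQ1 (0.994), STBD1 (0.994) and SQSTM1 (0.993), and none of these 5 was called.

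The ratios of immunoproteasome to constitutive subunits differed between the groups without overlap. In PSMB8 over PSMB5 most of the difference lay in the constitutive subunit PSMB5, which fell, while PSMB8 stood at 0.087 (adjusted p = 0.58 by edgeR). Groups without overlap were common among single genes. Of 17026 genes tested, 2519 had all DOX-positive libraries above the DOX-negative ones, and 2265 had all of them below. This share was not computed for ratios. PSMB5 was at 78.9, 76.4 and 76.4 CPM without DOX and at 46.7, 57.7 and 47.3 CPM with DOX. Every DOX-positive library was well below the DOX-negative ones, and PSMB5 fell by 0.61 on the log2 scale (SE 0.089, adjusted p = 0.0056), a fold of 0.654 (95% interval 0.572 to 0.748). PSMB5 was called in 13 of 16 alternatives, the 3 TPM fits being the exception. Per kb, PSMB8 over PSMB5 was 0.947, 0.940 and 0.922 without DOX and 1.505, 1.43 and 1.64 with DOX. On this scale PSMB5 exceeded PSMB8 without DOX, and PSMB8 exceeded PSMB5 in each DOX-positive library. PSMB8 lies in the MHC region and PSMB5 does not. Where this ratio lies relative to 1 therefore shares the uncertainty on read counting given above. The difference in the log2 TPM ratio was 0.70, from -3.77 ± 0.020 to -3.07 ± 0.10 (SD, n = 3), with an exact two-sided permutation p of 0.10, the smallest that 3 against 3 libraries can give. PSMB9 over PSMB6 per kb was 0.290, 0.291 and 0.284 without DOX and 0.315, 0.365 and 0.416 with DOX. These ratios did not overlap either, and the difference on the log2 TPM scale was 0.33 (exact two-sided permutation p = 0.10). PSMB6 stood at a log2 difference of -0.030 (SE 0.090, adjusted p = 0.89) and PSMB7 of -0.044 (adjusted p = 0.78), so of the 3 constitutive catalytic subunits only PSMB5 passed the test.

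**Figure D3:**
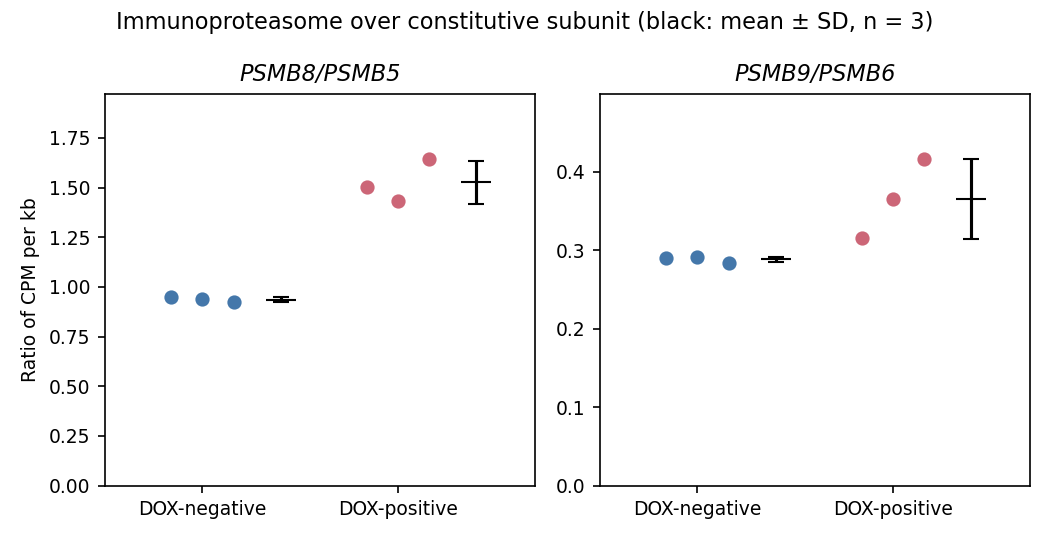
Ratio of CPM per kb (y axis, from 0) of PSMB8 over PSMB5 and of PSMB9 over PSMB6 in the 3 DOX-negative (blue) and 3 DOX-positive (red) libraries, in replicate order, with mean ± SD in black (n = 3). The PSMB8 over PSMB5 ratio is below 1 in the DOX-negative libraries and 1.43 to 1.64 in the DOX-positive libraries. Its position relative to 1 is uncertain, since how reads in the MHC region were counted is not given.

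The deposited TPM values could not be used to rank these genes. Counts divided by TPM give the gene length that entered each TPM value, up to a constant, and for 7 of the 9 genes this length was far above that of the principal transcript. Relative to the typical gene at 1, the ratio of the implied length to the principal length was 6.30 for HLA-B, 7.09 for HLA-C, 8.41 for TAP1, 10.8 for PSMB9, 11.02 for TAPBP, 12.8 for PSMB8 and 19.3 for TAP2. It was 1.07 for B2M and 1.00 for NLRC5, the 2 genes outside the MHC on chromosome 6. All 82 genes with a principal length between HLA-F and TAPBP (chromosome 6, 29723434 to 33314078) had a ratio above 2, with a median of 6.97. A ratio above 2 was found for 8.03% of 523 genes on the rest of chromosome 6. Of all 12358 genes outside the interval, which include these 523, 6.27% had such a ratio. TPM is therefore lower for the 7 genes than for B2M, NLRC5 and genes elsewhere at the same counts per principal length. A minimum of 1 TPM removed TAP1 and TAP2. It also removed NLRC5, whose implied length was typical and whose TPM averaged 0.738 without DOX and 0.935 with DOX. The implied length was the same in every library (median coefficient of variation 0.0036%), so ratios between groups without a pseudocount or a TPM minimum do not depend on it. On the log2(TPM + 1) scale the low TPM gave smaller differences, such as 0.12 for TAP1 and 0.070 for TAP2, compared with 0.22 and 0.14 from counts. What produced these lengths was not tested.

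**Figure D4:**
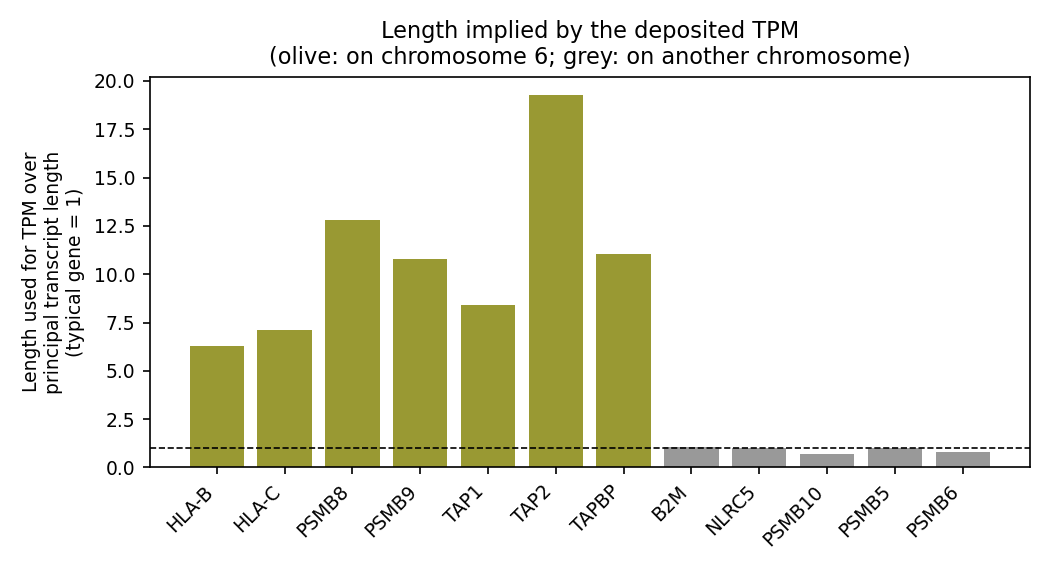
Length used for the deposited TPM over the principal transcript length (y axis, linear from 0; the dashed line at 1 is the typical gene) for 7 class I genes on chromosome 6 (olive) and for B2M, NLRC5 and 3 proteasome genes on other chromosomes (grey). The chromosome 6 genes range from 6.30 to 19.3, and the others lie near or below 1.

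Next, 65 companion genes in 5 lists were examined, and 60 of them could be tested. Of these, 2 were higher, 1 was lower and 57 did not pass, with a median log2 fold change of 0.061 and 60% above 0. The genes that passed were HLA-F, MICB and PSMB5, a share near the 4.87% of the background.

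Among 9 nonclassical and class I-like genes 7 were tested, 2 had 0 counts in every library, and 2 were higher, against 2.91% of all genes tested. MICB, a stress-induced ligand of the NKG2D receptor of NK and T cells, was at 40.0, 38.4 and 36.2 CPM without DOX and at 46.7, 54.2 and 53.7 CPM with DOX. It rose 1.35-fold (95% interval 1.18 to 1.53, log2 0.43, SE 0.085, adjusted p = 0.018) without overlap. HLA-F, a nonclassical heavy chain, was sparse at 0.782, 0.711 and 0.483 CPM without DOX and at 1.15, 1.33 and 1.32 CPM with DOX. It rose by 0.92 on the log2 scale (SE 0.21, adjusted p = 0.031), and shares the uncertainty on similar heavy-chain genes. Among the alternatives that tested it, MICB was called in 11 of 16 and HLA-F in 9 of 14. HLA-E, the ligand of CD94/NKG2A, was singled out after its values were seen, at 28.8, 25.9 and 24.1 CPM without DOX and 29.5, 37.4 and 37.3 CPM with DOX. Its log2 fold change was 0.40 (SE 0.11), its adjusted p of 0.054 lay just above the threshold, and its DOX-positive replicate 1 was again the lowest of the group. The median of the 7 was 0.32, and 6 of them were above 0. HLA-G went the other way, at a log2 fold change of -0.46 (adjusted p = 0.44 by edgeR). It was sparse, averaging 0.313 CPM without DOX and 0.231 CPM with DOX, and its DOX-positive libraries all lay lower.

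The 9 genes of loading and trimming in the endoplasmic reticulum included none that was called by edgeR, and 1 had an unadjusted p under 0.05. The chaperones CALR and CANX, which fold the heavy chain, had log2 fold changes of -0.15 (SE 0.071, adjusted p = 0.27) and 0.051 (SE 0.077, adjusted p = 0.76). Of 14 genes that supply peptides in the cytosol, PSMB5 was lower and the rest did not pass, among them the proteasome activator PSME4 at -0.050 (adjusted p = 0.815). The median of this list was -0.037.

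The regulators of class I transcription gave no called gene by edgeR among 16 tested, and 5 had an unadjusted p under 0.05 (21.1% of all genes tested did). EZH2, the catalytic subunit of the Polycomb complex that silences class I genes in several tumors, stood at a log2 difference of 0.25 (SE 0.071, adjusted p = 0.066), and its partner SUZ12 one of 0.0075 (SE 0.11, adjusted p = 0.98). IRF1, named after its values were seen because it acts at ISRE elements, was at 55.0, 52.4 and 54.4 CPM without DOX and at 60.1, 68.9 and 64.4 CPM with DOX. These groups did not overlap, and the log2 fold change was 0.26 (SE 0.077, adjusted p = 0.075). Of the 14 tested genes of interferon input, which comprises receptors, kinases and STAT factors, 0 were called by edgeR and 1 had an unadjusted p under 0.05. JAK1 had a log2 fold change of 0.079 (adjusted p = 0.60) and STAT2 one of -0.059 (adjusted p = 0.68). The interferon genes IFNB1 and IFNG did not pass the low-count filter.

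Class II molecules present peptides from outside the cell to CD4+ T cells. Of 10 tested MHC class II genes 1 was higher (2.91% of all genes tested were), HLA-DPA1, an α chain. It was at 17.6, 18.5 and 15.8 CPM without DOX and at 21.9, 24.7 and 26.2 CPM with DOX (log2 fold change 0.48, SE 0.097, adjusted p = 0.019). Its partner HLA-DPB1 stood at a log2 difference of 0.21 (SE 0.084, adjusted p = 0.17). Of the 10 class II genes 9 had a log2 fold change above 0, with a median of 0.32. Of 10 tested ligands of immune receptors and checkpoints 1 was higher, against 2.91% of all genes tested. It was ULBP1, which like MICB binds NKG2D. ULBP1 was at 15.3, 14.1 and 12.5 CPM without DOX and 17.9, 17.0 and 20.2 CPM with DOX (log2 fold change 0.39, SE 0.10, adjusted p = 0.049). CD47, a signal that restrains macrophages, had a log2 fold change of 0.051 (adjusted p = 0.86). ULBP1 was called in 4 of 16 alternatives and HLA-DPA1 in 10 of 14. All 10 tested ligands had a log2 fold change above 0, with a median of 0.30, and 50.1% of all genes tested were above 0. A positive direction was thus not particular to the class I genes.

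Some markers of other cell types also moved. Of all genes tested, 2.91% were called higher and 1.96% lower. Of 8 fibroblast markers 3 were tested, COL1A1 (log2 fold change 0.60) and LUM (1.06) were higher, and COL1A2, the most abundant, did not pass at -0.71 (adjusted p = 0.20) although its DOX-positive libraries all lay lower. COL3A1 had 0 counts throughout, and the summed level of the list was 25.2 to 30.7 CPM without DOX and 23.5 to 27.9 CPM with DOX. Of 7 endothelial markers 3 were tested, CDH5 (0.94) and VWF (0.97) were higher and KDR did not pass at -0.74 (adjusted p = 0.44). PECAM1 was near 0, and the summed level was 4.22 to 5.48 CPM without DOX and 7.29 to 8.73 CPM with DOX. The summed level of the 12 leukocyte markers was 73.3 to 80.7 CPM without DOX and 85.9 to 103.4 CPM with DOX, nearly all of it LCP1, which did not pass the test (log2 fold change 0.26, adjusted p = 0.11), and none of the 12 was called. The part of such transcripts in the class I values was not tested. In bulk RNA, fewer cells that express a gene and less RNA per cell cannot be told apart.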

How the data were processed

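RNA-seq of 6 H660 libraries was analysed from the deposited raw counts and TPM per gene symbol. Per the labels, RNA came from cells cultured in triplicates and was made into stranded mRNA libraries; independence of the cultures is not stated, so p-values measure the spread between these samples. The submitters' processing notes name STAR, DESeq2 and GRCh38 (hg38); the aligner version, annotation and strand setting are not given in the sources used here. The authors' TPM values divide counts by a gene length and rescale each library.

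Counts were filtered with filterByExpr, TMM-scaled and tested with edgeR 4.0.16 (glmQLFit robust, glmQLFTest; R 4.3.3), with Benjamini-Hochberg adjustment over all genes tested and a threshold of 0.05. The SE comes from the F statistic. The biological coefficient of variation was 9.575%, and no 2 libraries agreed within counting noise. Alternatives used DESeq2 1.42.0, limma 3.58.1, other scaling and filters, a replicate block and leaving out each library. The edgeR code was tested on simulated data. Principal transcript lengths came from GENCODE (APPRIS principal), found for 89.1% of 13968 genes. Subunit ratios were compared by an exact permutation test (scipy 1.17.1).

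The members, lists and tests were chosen with earlier results of these data known. Named genes were the members, MUC1, PSMB5 and PSMB6, up to 4 called genes per list (or the most abundant to make 2) and the 5 genes nearest in profile.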

Additional observations from a re-analysis of the deposited data

How the results depend on the processing

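The count of 0 class I genes called was the same under RLE scaling, no scaling factor, no or a stricter count filter, DESeq2, limma-voom and 3 fits of log2 TPM, and was 0 to 1 when a library was left out (1 without DOX-positive replicate 1). The 3 TPM fits called few genes of any kind, as given below, so their 0 carries little weight. Those with a minimum of 1 TPM tested only 6 of the 9 genes. Of 138 values of the 9 genes under the alternatives 135 kept direction and call, PSMB9 passed once, and 2 changed sign: B2M, -0.0096 to 0.12, and TAPBP, -0.033 to 0.12, when 1 library was left out. The 829 calls across all genes became 1355 with DESeq2, 31 with log2(TPM + 1) and 35 with log2(TPM + 0.1) above a mean of 1 TPM, and 11 with log2(TPM + 1) and no minimum. Leaving out 1 library gave 58 to 1035 calls, the fewest when DOX-negative replicate 3 was dropped, 127 when DOX-negative replicate 2 was, and 375 when DOX-positive replicate 3 was. The 3 companion genes called became 5 without a count filter, 7 with DESeq2 and 0 in the 3 TPM fits, and were 1 to 4 without 1 library (1 without DOX-negative replicate 2 or 3). MUC1 was at -1.22 (adjusted p = 0.11) with log2(TPM + 1) and no minimum, and -1.37 to -1.22 without 1 library.

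Of 234 values of 15 other named genes, 192 kept direction and call, 29 lost the call, 2 gained it and 11 changed sign. SUZ12 was at -0.0019 with limma-voom and -0.097 to 0.14 without 1 library. Leaving out 1 library gave ranges of -0.13 to 0.039 for PSMB6, -0.0012 to 0.11 for CANX, -0.12 to 0.063 for PSME4 and -0.13 to 0.18 for CD47. The DOX-positive minus DOX-negative difference in the log2 ratio ranged from 0.65 to 0.75 for PSMB8 over PSMB5. For PSMB9 over PSMB6 this difference ranged from 0.23 to 0.43.

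With the replicate block 0 class I genes, 4 companion genes and 998 genes in all were called, and SUZ12 was at -0.0055. The numbers are no pairing here: deviations from the group means of libraries with equal number correlated at -0.54, 0.019 and -0.10 over 14587 genes. For all of these values the cause was not tested.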
